A study of Mus musculus with 7 samples.

Results

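The genes described here are Polr2a, Polr2b, Polr2c, Polr2d, Polr2e, Polr2f, Polr2g, Polr2h, Polr2i and Polr2j, which encode subunits of RNA polymerase II. They are 10 of the 27998 genes in the count table, and all 10 were found by their symbols. Polr2f was selected on its high level in the ectopic cells of these same data, so its values are a description, and the 9 other subunits were taken to show whether that level was shared. RNA polymerase II is the enzyme that transcribes protein-coding genes. Polr2a and Polr2b encode its catalytic core, and Polr2a also carries the C-terminal heptad repeats that are phosphorylated as transcription proceeds. Polr2c and Polr2j encode the subunits on which the core assembles, Polr2d and Polr2g encode the stalk, and Polr2i encodes a subunit that acts in start site choice and proofreading. Polr2e, Polr2f and Polr2h encode subunits that RNA polymerases I, II and III have in common. The enzyme is needed in every oligodendrocyte lineage cell (OLC), from the oligodendrocyte precursor cell (OPC) to the mature oligodendrocyte (MOL).

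OLCs were sorted by fluorescence for single-cell RNA sequencing from what the labels give as motor and cingulate cortex of P90 mice, aged 11 to 14 weeks, of both sexes and of a C57BL/6-B6CBA background. Control dOLCs were TdTom+ cells of Emx1-Cre:Sox10-GFP-TdTom mice, in which Cre from dorsal forebrain progenitors switches the Sox10-driven reporter from GFP to tdTomato. Control vOLCs were the GFP+ cells of the same genotype, and ectopic vOLCs were the GFP+ cells of mice that carried Sox10-GFP-DTA as a further allele, with which Cre-expressing dorsal OLCs make diphtheria toxin A and die. All 3 populations carried Emx1-Cre and the reporter, 4 control and 2 ablated mice were used, and each population is 1 library in which mice are not told apart. No test between conditions was possible with single libraries, and ratios are given with 95% intervals for the error of counting, which leave out how mice or libraries vary. The DTA allele was present in the ectopic library and in no other, so the allele and the library cannot be told apart.

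The kept cells numbered 5804 for control dOLCs, 925 for control vOLCs and 2562 for ectopic vOLCs, and their medians were 3489.5, 5022 and 5318.5 unique molecular identifiers (UMIs) per cell. For each cluster or cell type, the UMIs of a gene were added up over cells and expressed as counts per 1000000 UMIs (CPM), the level used throughout. Control dOLCs, of which there is a single library, are also called dOLCs. MOL5/6 joins the clusters MOL5/6a to MOL5/6d of the deposited annotation, and OPC is used without cycling cells. The labels of these cells held against their markers, with 47507, 53122 and 53479 summed CPM for the 6 oligodendrocyte genes in MOL5/6 of control dOLCs, control vOLCs and ectopic vOLCs, and 3071, 4246 and 2905 summed CPM for the 4 OPC genes in OPCs. Among kept cells, 39 barcode sequences occurred in more than 1 library, in 78 cells. Without those cells, the log2 ratio of Polr2f between ectopic vOLCs and control dOLCs was 1.18 in MOL5/6 and 1.40 in OPCs.

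Polr2f lies beside Sox10, from whose regulatory sequences the reporter and DTA alleles take their name. In GRCm38, the assembly of the mm10 build named in the submitters' processing notes, Polr2f spans chr15:79141009-79151774 on the plus strand, in 5 exons. Sox10, a transcription factor that defines the oligodendrocyte lineage, spans chr15:79154908-79165240 on the minus strand, and 3133 bases separate the ends of the 2 genes. On the other side, 1700088E04Rik spans chr15:79129349-79141253 on the minus strand and overlaps the first 245 bases of Polr2f, so that both genes start from the same short stretch in opposite directions. The other members are on other chromosomes, among them Polr2a on chr11:69733997-69758637, Polr2b on chr5:77310147-77349324 and Polr2e on chr10:80035949-80039795. Of 34 annotated genes that start within 250 kb of Polr2f, 19 were in the count table, Polr2f included.

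The stretch between both starts is shown because Polr2f and 1700088E04Rik, which are read away from it, had like ratios between ectopic vOLCs and control dOLCs. In RefSeq, Polr2f starts farther downstream than in GENCODE, so that the genes do not overlap there. The plus strand from the RefSeq start of 1700088E04Rik up to that of Polr2f is given, 73 bases at chr15:79141252-79141324 (GRCm38.p6), with the capitals marking CCGGAA, the core of sites bound by ETS-family factors.
Start to start: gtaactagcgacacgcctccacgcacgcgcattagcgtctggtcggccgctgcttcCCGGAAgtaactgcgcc
The motif begins at base 57, and 11 bases lie between it and the start of Polr2f. Searched on both strands of the windows from 250 bases before to 50 bases after each RefSeq start, CCGGAA was found in 14.9% of 32851 promoters and in 4 of the 8 members with an entry, and the match in the windows of both genes is the same site. GGGCGG was found in 35.7% of promoters and 6 of these 8 members, CCAAT in 37.4% and 3, and TATAAA in 13.6% and 2, with no match to these 3 in the window of Polr2f. A match is a description of the letters and not evidence of binding.

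Polr2f was higher in ectopic vOLCs than in either control library, in mature cells and in precursors. In MOL5/6, 2968 UMIs in 3777 control dOLCs gave 200.01 CPM (95% counting interval 193 to 207). In 561 control vOLCs, 807 UMIs gave 276 CPM (258 to 296), and in 1842 ectopic vOLCs 4785 UMIs gave 453 CPM (440 to 466). The 3 intervals did not overlap, and the order of the libraries was control dOLCs, control vOLCs and ectopic vOLCs. As a log2 ratio of CPM, ectopic vOLCs were 1.18 above control dOLCs (1.11 to 1.24), a 2.26-fold difference, and 0.71 above control vOLCs (0.60 to 0.82). Control vOLCs were themselves 0.47 above control dOLCs (0.35 to 0.58). Genes were ranked where the libraries under comparison held 50 UMIs or more in all and 10% or more of the cells of either had a UMI. Of 5218 such genes, Polr2f had the 7th highest ratio for ectopic vOLCs over control dOLCs.

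The same order was seen in OPCs. Polr2f was at 194 CPM in dOLCs (509 UMIs, 177 to 211), 269 CPM in control vOLCs (106 UMIs, 220 to 325) and 517 CPM in the ectopic vOLCs (621 UMIs, 477 to 559). In log2 units ectopic vOLCs were 1.41 above control dOLCs (1.24 to 1.59) and 0.94 above control vOLCs (0.64 to 1.25), and control vOLCs were 0.47 above control dOLCs (0.15 to 0.77). Over all oligodendrocytes from MFOLb to MOL, the levels were 198, 264 and 449 CPM in the same order. OPCs of control dOLCs held more oligodendrocyte marker RNA, at 8548 summed CPM against 3767 in control vOLCs and 3757 in the ectopic vOLCs. The part of this in the OPC ratio was not tested.

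**Figure D1:**
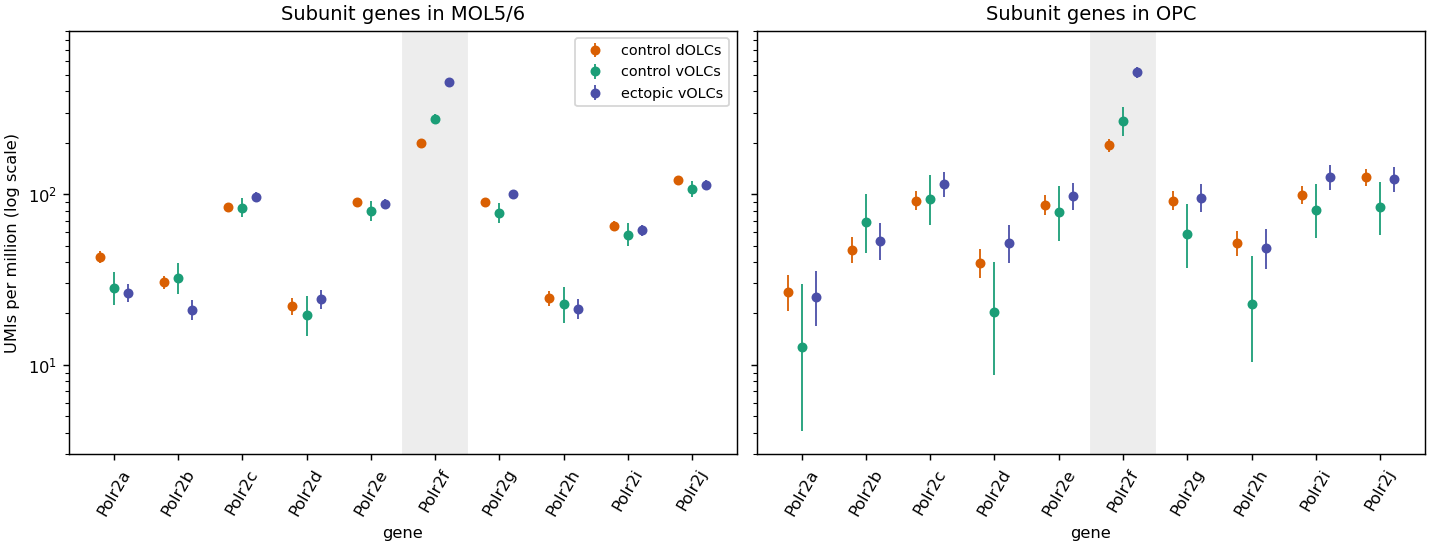
CPM of the 10 subunit genes (log scale) in MOL5/6 and OPCs of dOLCs, control vOLCs and ectopic vOLCs, with exact Poisson 95% intervals for counting error and Polr2f shaded. Polr2f lay at 200.01, 276 and 453 CPM in MOL5/6, while Polr2a and Polr2b lay lower there for ectopic vOLCs than for dOLCs. Levels are set against each other between libraries and not between genes.

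The UMIs of Polr2f were spread over many cells. In MOL5/6, the 1% of cells with most Polr2f held 5.83% of its UMIs in dOLCs, 4.96% in control vOLCs and 4.01% in the ectopic vOLCs. The mean per cell was 0.786, 1.44 and 2.60 UMIs, and no cell held more than 6, 9 and 13. Cells also differed in depth, with medians of 3491, 5069 and 5478.5 UMIs in MOL5/6 of the 3 libraries. With each cell thinned to 1000 UMIs, the log2 ratio for ectopic vOLCs over control dOLCs was 1.23 in MOL5/6 and 1.24 in OPCs. Among cells with 3000 to 6000 UMIs only, it was 0.79 in MOL5/6, where the median of the other 9 subunits was −0.39, and 1.22 in OPCs. Depth within that range was not matched between the libraries.

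The higher level was not shared by the other 9 subunits. Summed over the 9 genes, MOL5/6 held 569 CPM in dOLCs (8442 UMIs, 557 to 581), 508 CPM in control vOLCs (1483 UMIs, 482 to 534) and 552 CPM in the ectopic vOLCs (5835 UMIs, 538 to 566). The log2 ratio of these sums between ectopic vOLCs and control dOLCs was −0.04 (−0.09 to 0.00). All 9 genes passed the filter on low counts in this comparison. Their median log2 ratio was −0.08, from −0.69 to 0.20, against a median of −0.03 over the 5218 genes, of which 46.6% were above 0. A log2 ratio of at least 0.5 was reached by 0 of the 9 genes, where 2.05% of all genes did so, and a ratio of −0.5 or less by 2 of the 9, Polr2a and Polr2b, where 14.8% did so.

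The scaling of the libraries sets where 0 lies in this comparison. Factors of the trimmed mean of M-values (TMM) moved every log2 ratio for ectopic vOLCs over control dOLCs in MOL5/6 by 0.17, and median of ratios factors moved it by 0.19. The genes past a ratio of 0.5 were then split into 386 higher and 462 lower under TMM, against 107 higher and 774 lower under total UMIs. The difference between Polr2f and the median of the other 9 subunits does not depend on the scaling and was between 1.18 and 1.27 in MOL5/6 over all settings that kept control dOLCs as the control. With control vOLCs as the control it was 0.63.

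Within the catalytic core, both genes were lower in ectopic MOL5/6. Polr2a was at 42.8 CPM in dOLCs, 28.1 in control vOLCs and 26.5 in the ectopic vOLCs, and its log2 ratio for ectopic vOLCs over control dOLCs was −0.69 (−0.90 to −0.49). Control vOLCs were as low as ectopic vOLCs, with a ratio of −0.61 over control dOLCs (−0.96 to −0.27). Polr2b was at 30.4, 32.2 and 20.997 CPM in the same order, so that it was lowest in ectopic vOLCs, by −0.53 against control dOLCs (−0.77 to −0.30) and −0.62 against control vOLCs (−0.97 to −0.25). Both kept this sign under all 11 alternative settings, although Polr2a was at or below −0.5 in 7 of them and Polr2b in 4. Averaged over the 4 MOL5/6 clusters, the ratio was −0.21 for Polr2a and −0.49 for Polr2b. In OPCs neither gene was clearly lower than in control dOLCs. The ratios there were −0.10 for Polr2a (−0.76 to 0.54) and 0.17 for Polr2b (−0.29 to 0.62).

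Polr2a and Polr2b have the longest transcripts of the 10 genes, and longer transcripts tended to be lower in the ectopic library. Across 5082 genes with a transcript length in the GENCODE annotation, Spearman's rho of transcript length with the log2 ratio for ectopic vOLCs over control dOLCs in MOL5/6 was −0.54. These genes share the same 2 libraries and are not independent, so no p is given. Length was that of the longest annotated transcript of each gene, and which transcript these cells made was not tested. Polr2a is 6740 bases long, Polr2b 4145 and Polr2c 3881, while the other members are between 819 and 1148 bases, with 885 for Polr2f. Among the 500 genes closest in length, the median log2 ratio was −0.45 for Polr2a, −0.21 for Polr2b, −0.18 for Polr2c and 0.08 for Polr2f. Taking that median off left −0.24 for Polr2a, −0.32 for Polr2b, 0.38 for Polr2c and 1.10 for Polr2f. Polr2c, with a ratio of 0.20 as measured, thus lay above genes of its length. The part of transcript length in these values was not tested further.

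**Figure D2:**
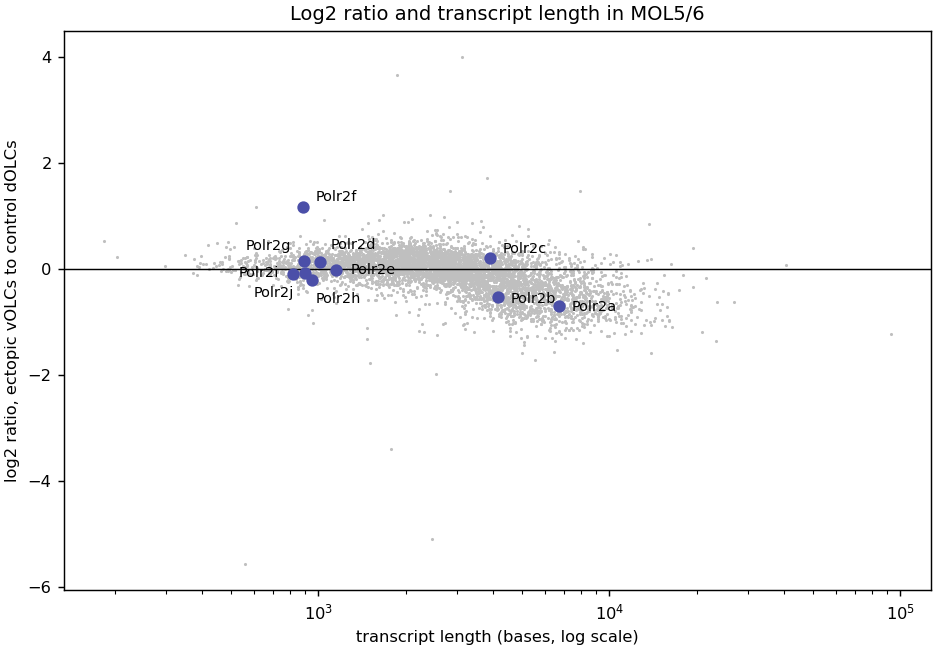
Log2 ratio for ectopic vOLCs over control dOLCs in MOL5/6 against transcript length in bases (log scale), with 1 grey point for each of 5082 genes and the 10 subunit genes in blue. Polr2f at 885 bases and a ratio of 1.18 lay above genes of like length, whereas Polr2a and Polr2b lay among the lower ratios of long transcripts.

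The assembly and stalk subunits lay close to 0. Polr2c was at 84.0, 83.2 and 96.6 CPM in MOL5/6 of dOLCs, control vOLCs and ectopic vOLCs, which gave a log2 ratio for ectopic vOLCs over control dOLCs of 0.20 (0.08 to 0.32). Polr2j was at 120.5, 107 and 114 CPM, with a ratio of −0.08 (−0.19 to 0.02). In the stalk, Polr2d was at 22.0, 19.5 and 24.2 CPM and Polr2g at 89.8, 77.4 and 99.5 CPM, with ratios of 0.14 (−0.11 to 0.38) and 0.15 (0.03 to 0.27). As the mean over the 4 MOL5/6 clusters, Polr2g turned to −0.35 and Polr2c to −0.01, so neither held its direction. Polr2c had the highest ratio of the 9, about 1 unit of log2 below that of Polr2f, at a difference of 0.98.

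Among the 9 subunits, Polr2e and Polr2h, common to polymerases I, II and III like Polr2f, and Polr2i also lay near 0. Polr2e was at 89.5 CPM in dOLCs, 79.8 in control vOLCs and 87.8 in the ectopic vOLCs, with a log2 ratio for ectopic vOLCs over control dOLCs of −0.03 (−0.15 to 0.09). Polr2h was at 24.5, 22.6 and 21.3 CPM, with a ratio of −0.20 (−0.45 to 0.04). Part of the Polr2h transcript has a near-identical copy, Gm7511, in the annotation, so its count is less certain. Polr2i was at 65.4, 57.9 and 61.4 CPM, with a ratio of −0.09 (−0.24 to 0.05). The intervals of Polr2e, Polr2h and Polr2i each held 0, and their upper bounds were 0.09, 0.04 and 0.05.

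**Figure D3:**
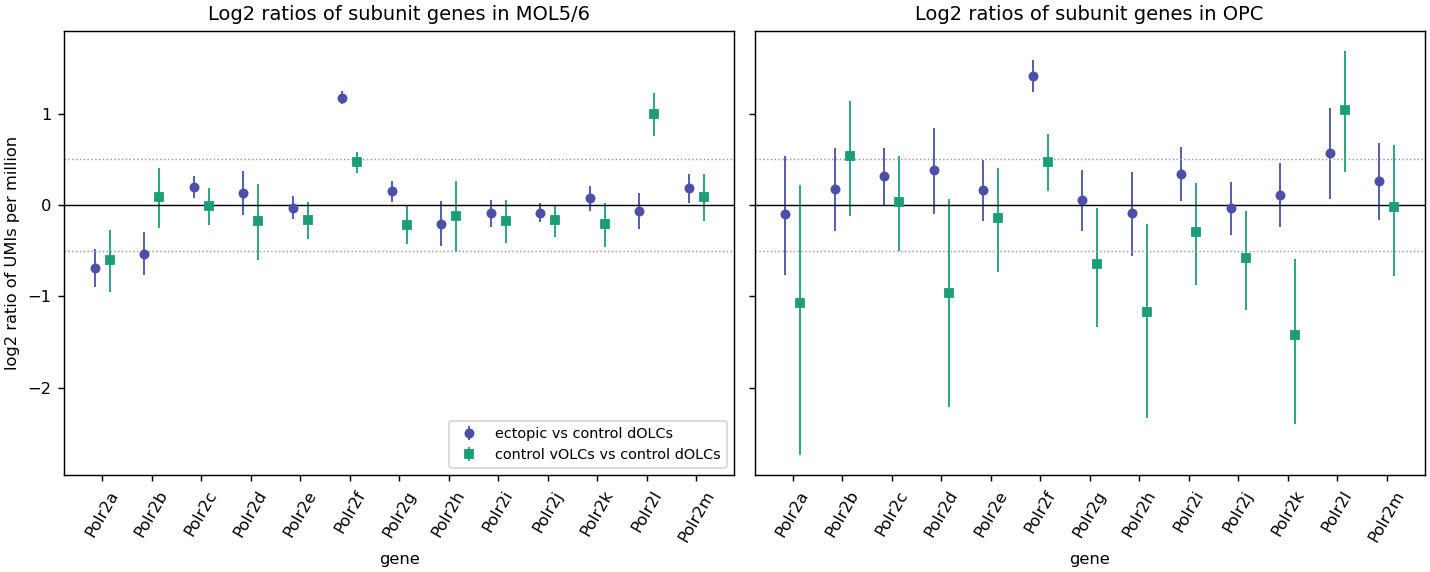
Log2 ratio of CPM of ectopic vOLCs (circles) or control vOLCs (squares) over control dOLCs for 13 subunit genes in MOL5/6 and OPCs, with exact conditional binomial 95% intervals for counting error and dotted lines at 0.5 and −0.5. Polr2f was the highest circle in both cell types, at 1.18 and 1.41, and Polr2l was the highest square, at 0.99 and 1.05.

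In OPCs the other subunits were at 659 summed CPM in dOLCs (1731 UMIs), 519 in control vOLCs (205 UMIs) and 732 in the ectopic vOLCs (880 UMIs). The log2 ratio of these sums between ectopic vOLCs and control dOLCs was 0.15 (0.03 to 0.27). The median over the 9 genes was 0.16, from −0.10 to 0.38, against 0.08 over 6110 genes, of which 60.5% were above 0. Of the 9 genes, 8 passed the filter, Polr2a being the exception. None of the 9 reached a ratio of 0.5 or of −0.5, where 8.48% and 7.45% of all genes did so. Polr2d was highest among them, at 39.6 CPM in dOLCs, 20.3 in control vOLCs and 51.6 in the ectopic vOLCs, with a ratio of 0.38 (−0.10 to 0.85). Polr2i was at 99.4, 81.1 and 126 CPM, with a ratio of 0.34 (0.04 to 0.63), and Polr2c at 91.4, 93.7 and 114 CPM, with a ratio of 0.32 (0.00 to 0.63). The interval of Polr2f did not overlap that of any other subunit.

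Against control vOLCs, a comparison that rests on the smallest library, Polr2f was again the highest of the 10 in MOL5/6, by a smaller margin. The sum of the 9 others was higher in ectopic vOLCs by 0.12 (0.04 to 0.20), and 6 of the 9 were above 0, where 47.7% of all genes were. The 9 other subunits had a median log2 ratio of 0.08, from −0.62 to 0.36, against −0.02 over 5496 genes. Of the 9, 0 reached 0.5, where 2.57% of all genes did so, and Polr2b alone was at or below −0.5, where 15.8% did so. Polr2g was highest, at 0.36 (0.15 to 0.58), so Polr2f exceeded it by 0.35. In OPCs of control vOLCs, single subunits rested on 5 to 37 UMIs. There, 6 of the 9 were at or above 0.5 in the ratio of ectopic vOLCs to control vOLCs, where 21.8% of all genes were, and 0 at or below −0.5, where 13.5% were. They were Polr2a, Polr2d, Polr2g, Polr2h, Polr2i and Polr2j, of which Polr2a did not pass the filter. Polr2d, at 1.35 (0.28 to 2.62), Polr2h, at 1.08 (0.06 to 2.28), and Polr2a, at 0.98 (−0.40 to 2.70), lay above the 0.94 of Polr2f, with intervals that held it. The sum of the 9 was higher in ectopic than control vOLCs by 0.50 (0.27 to 0.72), on 880 and 205 UMIs. Polr2f was higher by 0.94 (0.64 to 1.25), an interval that overlapped that of the sum. In precursors, Polr2f was thus above the sum but not the highest single subunit against control vOLCs.

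Control vOLCs and control dOLCs came from mice of the same genotype. In MOL5/6 the 9 other subunits had a median log2 ratio of −0.17 between them, from −0.61 to 0.08, and 7 of the 9 passed the filter. None reached 0.5, where 3.62% of all genes did, and Polr2a alone reached −0.5, where 1.75% did. Polr2f was above 0 by 0.47, while 8 of the other 9 were below 0. Of 5195 genes, 44.2% were above 0, with a median of −0.03. In OPCs, Polr2b at 0.53 (−0.12 to 1.14) was the 1 subunit at or above 0.5, where 14.7% of all genes were. Polr2a, Polr2d, Polr2g, Polr2h and Polr2j were at or below −0.5, where 15.4% were. Their low counts in the control vOLC library, from 5 UMIs for Polr2a to 33 for Polr2j, enter both this comparison and that of ectopic with control vOLCs.

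A share within the family needs no scaling of libraries. Of the UMIs of the 10 genes in MOL5/6, Polr2f made up 26.0% in dOLCs (Clopper-Pearson 95% interval 25.2 to 26.8, 11410 UMIs), 35.2% in control vOLCs (33.3 to 37.2, 2290 UMIs) and 45.1% in the ectopic vOLCs (44.1 to 46.0, 10620 UMIs). In OPCs it made up 22.7% of 2240 UMIs, 34.1% of 311 (28.8 to 39.6) and 41.4% of 1501 (38.9 to 43.9). The 3 intervals were apart in MOL5/6, while in OPCs those of control vOLCs and ectopic vOLCs overlapped.

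Polr2f was measured in all 11 clusters of the annotation. In control dOLCs it was highest in MOL2b at 259 CPM (236 to 285), followed by cycling OPCs at 250 CPM on 16 UMIs, MOL5/6d at 243 CPM and MOL5/6c at 231 CPM. The interval of MOL5/6c (216 to 246) did not overlap that of OPCs, which came next at 194 CPM (177 to 211). MOL1 at 186 CPM, MFOLb at 172 CPM, MOL5/6b at 165 CPM, MOL5/6a at 150.5 CPM, MOL2a at 146 CPM and COP/NFOL/MFOLa at 126 CPM (97.1 to 162) followed, and all other neighbors in that order had overlapping intervals. The order in ectopic vOLCs was similar, from 568 CPM in MOL2b (519 to 621), 567 in MOL5/6d and 552 in MOL5/6c, through OPCs at 517 and MOL1 at 475, down to 280 in MOL5/6a, 251 in MOL2a and 241 in COP/NFOL/MFOLa (169 to 334). Neighbors in that order had overlapping intervals throughout. Over the 11 clusters, Spearman's rho between the levels of ectopic vOLCs and control dOLCs was 0.91. It was 0.65 between ectopic and control vOLCs and 0.56 between control vOLCs and control dOLCs. Control vOLCs held as few as 3 cells in a cluster. These values are a description, because clusters of a library share its cells and depth.

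The log2 ratio for ectopic vOLCs over control dOLCs for Polr2f was above 0.5 in all 11 clusters. It ran from 0.78 in MOL2a (0.50 to 1.06) to 1.41 in OPCs, with 1.35 in MOL1 (1.06 to 1.64) and 1.13 in MOL2b (0.94 to 1.32), and the interval lay above 0 in 10 clusters, cycling OPCs being the exception with 22 and 16 UMIs. Within MOL5/6 it was 0.90, 1.04, 1.26 and 1.22 from MOL5/6a to MOL5/6d. These clusters made up different parts of the libraries, with 1947 of 3777 control dOLCs in MOL5/6b against 42 of 1842 ectopic vOLCs, and 900 and 837 ectopic vOLCs in MOL5/6a and MOL5/6d. The mean over the 4 clusters was 1.10 for Polr2f. Over all 11 clusters the other 9 subunits gave 96 ratios with at least 10 UMIs, of which 50 were below 0. Their interval lay above 0 in 3 and below 0 in 5.

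The difference between the ectopic and control vOLCs depended more on the cluster. In MOL5/6a, which held 900 ectopic and 237 control vOLCs, Polr2f was at 280 CPM (264 to 297) and 254 CPM (227 to 282), a log2 ratio of 0.14 (−0.03 to 0.32). In MOL5/6d, which held 837 and 35 cells, it was at 567 CPM (548 to 586) and 374 CPM (304 to 455), a ratio of 0.60 (0.31 to 0.90). The interval also lay above 0 in MOL5/6c at 0.86, in OPCs at 0.94 and in MOL1 at 1.38 (0.82 to 1.99), and it held 0 in the remaining 7 clusters. Averaged over the 4 MOL5/6 clusters, the ratio to control vOLCs was 0.48, below the 0.71 of the summed cells. Between control vOLCs and control dOLCs, Polr2f was above 0 in 10 of 11 clusters, from −0.03 in MOL1 to 0.93 in MFOLb, with an interval above 0 in 8.

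**Figure D4:**
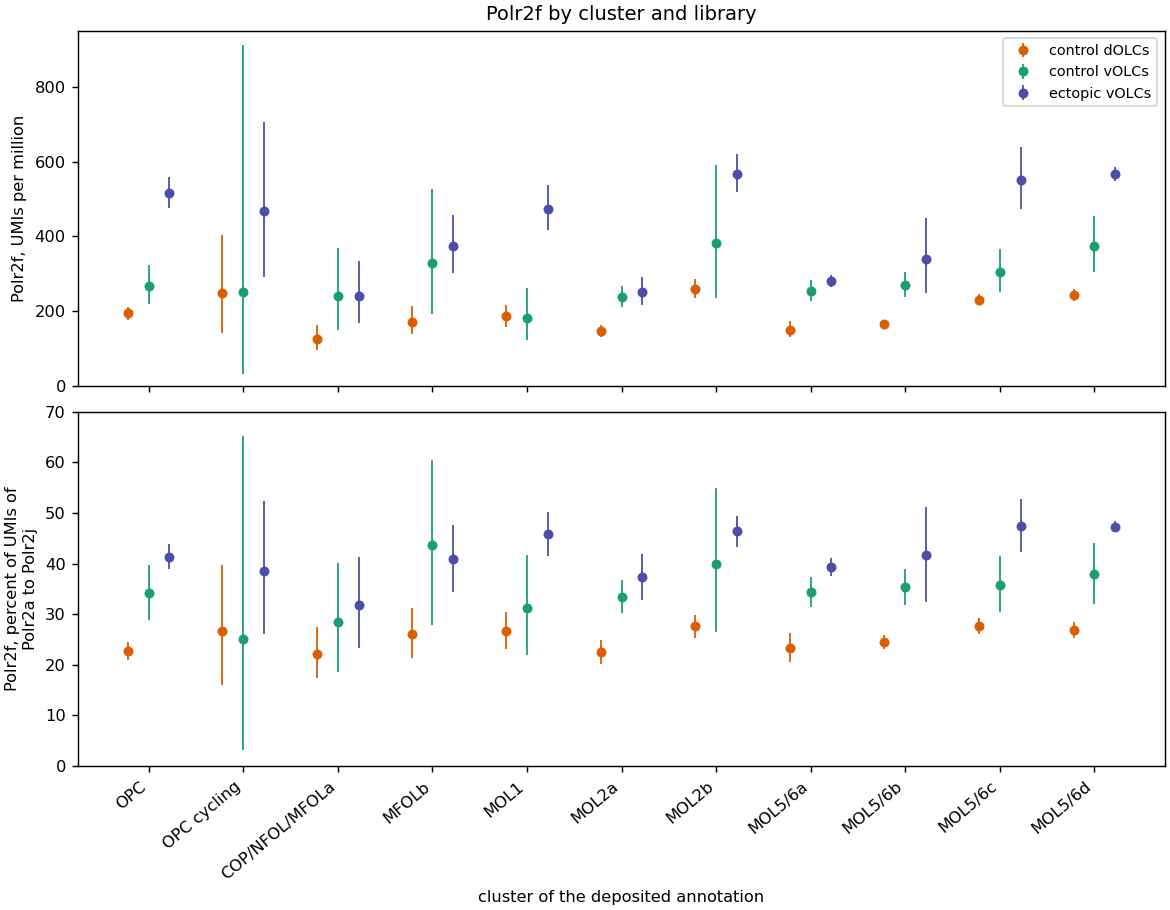
Polr2f by cluster in control dOLCs, control vOLCs and ectopic vOLCs, as CPM with exact Poisson intervals (top) and as a percentage of the UMIs of Polr2a to Polr2j with Clopper-Pearson intervals (bottom), both at 95% and for counting error. Ectopic vOLCs were above control dOLCs in all 11 clusters in both panels, with a log2 ratio of CPM from 0.78 in MOL2a to 1.41 in OPCs.

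As a share of the UMIs of the 10 genes, Polr2f lay between 22.1% and 27.7% in the 11 clusters of control dOLCs and between 31.9% and 47.5% in those of ectopic vOLCs. The ectopic share was above that of control dOLCs in all 11 clusters, with intervals apart in 9, and above that of control vOLCs in 10, with intervals apart in 3. The exception was MFOLb, at 40.9% in ectopic and 43.6% in control vOLCs. Control vOLCs lay above control dOLCs in 10 of 11 clusters, with intervals apart in 6. In the ectopic library the share was lowest in COP/NFOL/MFOLa, at 31.9% (23.4 to 41.3), and highest in MOL5/6c, at 47.5% (42.3 to 52.7).

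The remaining subunits of the enzyme were Polr2k and Polr2l, which are also common to polymerases I, II and III, and Polr2m. In MOL5/6, Polr2k was at 66.3 CPM in dOLCs, 57.2 in control vOLCs and 69.7 in the ectopic vOLCs, with a log2 ratio for ectopic vOLCs over control dOLCs of 0.07 (−0.07 to 0.21). Polr2m was at 48.0, 51.0 and 54.6 CPM, with a ratio of 0.18 (0.02 to 0.34). Polr2l was at 35.1, 69.9 and 33.7 CPM, so that control vOLCs were above both other libraries, by 0.99 over control dOLCs (0.75 to 1.23), while ectopic vOLCs were 1.05 below them (−1.31 to −0.80). In OPCs it was at 33.1, 68.4 and 49.1 CPM, and its ratio for ectopic vOLCs over control dOLCs was 0.57 (0.06 to 1.06). There, Polr2k had a ratio of 0.11 over control dOLCs and of 1.54 over control vOLCs (0.67 to 2.53), on 12 UMIs in the latter and above the 0.94 of Polr2f, and Polr2m had ratios of 0.26 and 0.28. The intervals of Polr2l in control dOLCs and ectopic vOLCs overlapped in MOL5/6. Parts of Polr2k and Polr2l have near-identical copies in the annotation, for Polr2l including a stretch of Pola2, so their counts are less certain. No such copy was found for Polr2f.

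Other genes of the transcription apparatus were taken from lists, to be read against the 2.05% of all genes at or above 0.5 and the 14.8% at or below −0.5 in MOL5/6 between ectopic vOLCs and control dOLCs. Of 31 general transcription factors, 15 passed the filter in MOL5/6, with a median log2 ratio for ectopic vOLCs over control dOLCs of 0.08, 0 at or above 0.5 and 1 at or below −0.5. Gtf2b, which encodes the initiation factor TFIIB, was highest at 0.40, and Taf1, the largest subunit of TFIID, was lowest at −0.70. Of 20 elongation and pausing factors, 16 passed, with a median of −0.24, 0 above and 4 below these limits, from Leo1 of the PAF1 complex at 0.33 to Supt5 of DSIF at −0.68. Of 31 Mediator genes, 18 passed, with a median of 0.02, 0 above and 2 below, from Med30 at 0.38 to Med13 at −1.01. Of 17 genes for assembly of the polymerase and modification of its C-terminal domain, 8 passed, with a median of −0.49, 1 above and 4 below. They ran from Gpn3, a GTPase of polymerase assembly, at 0.52 to Ctdsp2, a C-terminal domain phosphatase, at −0.80. The lists were not set against genes of like transcript length, although longer transcripts tended to be lower in the ectopic library.

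Subunits of the other polymerases, which also use the product of Polr2f, showed no such level. Of 8 genes of polymerase I, 4 passed, with a median of −0.16, from Polr1d at 0.07 to Znrd1 at −0.33. Of 11 genes of polymerase III, 4 passed, with a median of 0.10, and Polr3e was highest at 0.50. In OPCs the medians were 0.04 for polymerase I, 0.13 for polymerase III, 0.23 for general transcription factors, 0.00 for elongation factors, −0.10 for assembly and C-terminal domain enzymes and 0.34 for Mediator. Against them, Polr2f stood at 1.18 in MOL5/6 and 1.41 in OPCs.

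Of the neighbors, 1700088E04Rik was also higher in ectopic vOLCs relative to control dOLCs, on few counts. It did not pass the filter and was named for its position after its values were seen. In MOL5/6 it had 32 UMIs in dOLCs (2.16 CPM), 10 in control vOLCs (3.42 CPM) and 53 in the ectopic vOLCs (5.01 CPM), with a log2 ratio for ectopic vOLCs over control dOLCs of 1.22 (0.56 to 1.90). In OPCs it had 17, 5 and 20 UMIs, at 6.48, 12.7 and 16.6 CPM, with a ratio of 1.36 (0.35 to 2.38). Its ratios over control vOLCs were 0.55 (−0.44 to 1.69) in MOL5/6 and 0.39 (−1.06 to 2.16) in OPCs, with intervals that held 0. Control vOLCs lay between the other libraries in both, although their intervals overlapped those of each. The last 500 bases of its transcript lie antisense within Micall1, so strand decides to which gene reads from there are counted.

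Sox10 did not share the higher level. It was at 485 CPM in dOLCs, 398 in control vOLCs and 358 in the ectopic vOLCs in MOL5/6, with a log2 ratio for ectopic vOLCs over control dOLCs of −0.44 (−0.50 to −0.38), and at 529, 489 and 506 CPM in OPCs, with a ratio of −0.06 (−0.20 to 0.07). Micall1, which acts in endocytic recycling and starts at −32.1 kb from Polr2f, was at 107, 108 and 46.7 CPM in MOL5/6, with a ratio of −1.19 (−1.34 to −1.05). Its low level was thus seen in ectopic vOLCs and not in control vOLCs. In OPCs it was at 35.0, 25.3 and 15.8 CPM, with a ratio of −1.15 (−1.94 to −0.42), and did not pass the filter. The TMM scaling, which adds 0.17 in MOL5/6, left the sign of both genes as it was.

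The other neighbors that passed the filter in MOL5/6 were closer to 0. Eif3l, a subunit of a translation initiation factor, had a log2 ratio for ectopic vOLCs over control dOLCs of 0.28 (0.16 to 0.40), and Ankrd54 of 0.13 (−0.12 to 0.39). Gcat, an enzyme of threonine breakdown, had a ratio of 0.06 (−0.11 to 0.24), the linker histone gene H1f0 of 0.06 (−0.04 to 0.16) and Nol12 of −0.14 (−0.34 to 0.05). Pick1, on the far side of Sox10, had a ratio of 0.01 (−0.18 to 0.20). Among genes of the window that passed the filter in MOL5/6, Polr2f alone had a ratio above 0.5. Whether the Sox10 alleles have a part in it was not tested.

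**Figure D5:**
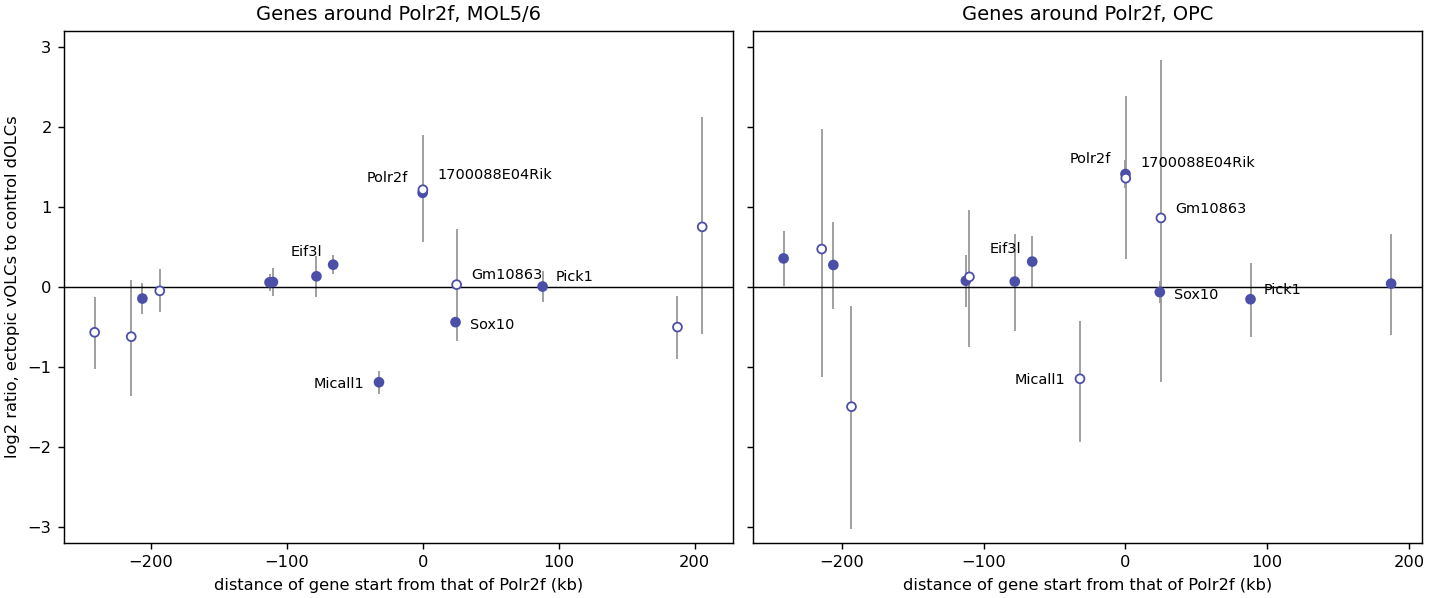
Log2 ratio for ectopic vOLCs over control dOLCs in MOL5/6 and OPCs against the distance in kb of each gene's start from that of Polr2f, with 95% counting intervals, filled points for genes past the filter on low counts and open points for the rest. Polr2f and 1700088E04Rik lay at 1.18 and 1.22 in MOL5/6, between Micall1 at −1.19 and Sox10 at −0.44.

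Markers of other cells did not follow Polr2f in MOL5/6. The 4 neuron markers summed to 18.3 CPM in dOLCs, 7.88 in control vOLCs and 10.4 in the ectopic vOLCs, the 5 astrocyte markers to 192, 154 and 146 CPM and the 6 microglia markers to 1.68, 1.37 and 0.851 CPM, with 2, 4 and 3 of the latter at 0. The 3 endothelial markers were at 2.56, 6.16 and 1.99 CPM, and 8 stress genes between 199.7 and 233 CPM. In OPCs the stress genes were highest in ectopic vOLCs, at 622, 499 and 824 CPM, while the neuron markers were at 1090, 1262 and 1183 CPM. Their part in the OPC ratios was not tested.

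The profile of Polr2f over clusters and libraries was set against those of the other genes. Over the 26 combinations of library and cluster with at least 30 cells, 9 of them ectopic, Pearson's r of log2(CPM + 1) with Polr2f was highest for Ube2e1 at 0.80, Ndufa1 at 0.77, Rnf5 at 0.74, Dctn6 at 0.73 and Mthfsl at 0.73, among 11717 genes. The mean log2(CPM + 1) of Ube2e1, a ubiquitin-conjugating enzyme gene, was 6.39 in the ectopic profiles and 5.88 in the control ones. Among the other subunits, r was highest for Polr2e at 0.56, followed by Polr2j at 0.46, and lowest for Polr2b at −0.11. For Sox10 it was −0.10 and for 1700088E04Rik 0.30. These profiles share libraries and depth, and r is given as a description.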

How the data were processed

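Droplet libraries were counted by the authors with Cell Ranger, version 2.1.1 in the submitters' processing notes, on mm10. The authors deposited whole-number UMI counts, not normalized, per gene symbol and barcode, and an annotation of other values per the file headers, from which the library code and cluster name were taken. The authors kept barcodes with over 200 and under 3000 genes and at most 15% mitochondrial counts, and clustered the cells with Seurat after sctransform. These 9291 cells were used. Per the labels, a further cohort was left out by the authors because of batch effects. The 4 P0 samples, whose labels give no single genotype, are not analysed here.

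UMIs were summed per library and cluster or cell type and scaled to CPM. Log2 ratios carry exact conditional binomial intervals, levels exact Poisson and shares Clopper-Pearson intervals, all at 95% and for counting error only. A ratio within a cluster needed 10 UMIs. The members and lists were chosen with earlier results of these data known. Named by rule were the 10 members, Polr2k, Polr2l and Polr2m, Sox10 and genes within 250 kb of Polr2f past the filter, the highest and lowest gene of each list, of which 1 is not reported here, and the 5 genes most like Polr2f. In OPCs, Sh3bp1 and Pla2g6 of the window also passed the filter, at log2 ratios of 0.36 and 0.04.

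No doublets were removed. Scrublet (scanpy 1.11.5, rate 0.06) marked 16 of the cells, too few for the caller to have worked. Scaling alternatives used edgeR 4.0.16 and DESeq2 1.42.0 in R 4.3.3. Other steps used Python 3.11.15, numpy 2.4.6, scipy 1.17.1, pandas 2.3.3 and BLAST 2.17.0. Only the log2 ratios and intervals were tested on simulated counts, which held no variation between cells, mice or libraries. Positions and lengths came from GENCODE on GRCm38, with a length, that of the longest annotated transcript, for 95.2% of genes.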

Additional observations from a re-analysis of the deposited data

Results flagged for a closer look

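Barcodes that the filter on cells removed enter no comparison above, and a like difference appeared in them. They came from the same libraries as the kept cells and are not independent of them. Control dOLCs had 388 such barcodes with Polr2f at 199 CPM, control vOLCs had 114 at 301 CPM and ectopic vOLCs had 288 at 529 CPM, log2 ratios of 1.41 for ectopic vOLCs to control dOLCs (1.28 to 1.53), 0.81 for ectopic to control vOLCs (0.63 to 1.00) and 0.60 for control vOLCs to control dOLCs (0.39 to 0.80). The other 9 subunits together had ratios of 0.13 (0.05 to 0.22), 0.21 (0.07 to 0.35) and −0.08 (−0.22 to 0.06). In the same barcodes 1700088E04Rik had 7, 6 and 23 UMIs, a ratio of 1.86 for ectopic vOLCs to control dOLCs (0.59 to 3.32), of 0.057 for ectopic to control vOLCs (−1.28 to 1.64) and of 1.80 for control vOLCs to control dOLCs (−0.049 to 3.60).

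Sh3bp1, at −241.2 kb from the start of Polr2f, had ratios of opposite sign in the cell types. For ectopic vOLCs against control dOLCs, its log2 ratio was −0.57 in MOL5/6 (−1.02 to −0.12), on 63 and 131 UMIs and short of the filter on low counts, and 0.36 in OPCs (0.01 to 0.70). Among 77 values compared between the cell types, repeats over comparisons included, this was the 1 with intervals on opposite sides of 0. The difference between the cell types was not tested.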

How the results depend on the processing

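Of the planned and added alternatives, the log2 ratio of Polr2f between ectopic vOLCs and control dOLCs kept its sign and stayed above 0.5 under every one, between 0.71 and 1.36 in MOL5/6, 0.94 and 1.43 in OPCs and 0.76 and 1.37 in all oligodendrocytes. In MOL5/6 it was 1.35 with TMM factors, 1.36 with median of ratios factors, 0.71 with control vOLCs as the control and 1.10 less the median of the 500 genes closest in length. In all oligodendrocytes these settings gave 1.37, 1.37, 0.76 and 1.10. In OPCs it was 0.94 with control vOLCs as the control, 1.24 with thinned cells and 1.19 with length taken off. Settings added once the data had been seen were depth classes, means over clusters and shared barcodes. Cells with 3000 to 6000 UMIs gave 0.79 in MOL5/6, 1.22 in OPCs and 0.86 in all oligodendrocytes, and the mean over clusters gave 1.10 in MOL5/6 and 1.10 in all oligodendrocytes. The ratio of control vOLCs to control dOLCs in MOL5/6 was 0.73 with thinned cells and 0.62 as the mean over clusters.

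The median of the other 9 subunits in MOL5/6 was 0.086 with TMM factors, 0.10 with median of ratios factors, 0.085 with control vOLCs as the control, −0.012 with thinned cells, −0.39 in cells with 3000 to 6000 UMIs, −0.16 with length taken off and −0.16 as the mean over clusters. In OPCs it was 0.63 with control vOLCs as the control, −0.041 in cells with 3000 to 6000 UMIs and 0.0058 with length taken off. The cause of these shifts was not tested. The share of Polr2f in ectopic MOL5/6 was 43.7% with thinned cells and 42.6% in cells with 3000 to 6000 UMIs, and in control dOLCs it stayed between 25.4% and 26.0%. Genes past the limit in MOL5/6 numbered 10 higher and 102 lower at a log2 ratio of 1, 903 and 4272 with no filter beyond 1 UMI in each library, and 386 and 462 with TMM factors. No paired analysis was possible because a condition holds a single library. Depth limits single subunits in OPCs of control vOLCs, which rest on 5 to 37 UMIs.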
